A study of Mus musculus with 2 samples.

Results

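MG2 is one of 15 cluster labels that the deposited table gives to osteogenic and mesenchymal cells of the mouse embryonic coronal suture. The study reads MG1 and MG2 as a likely periosteal layer of the dura mater and names MG2 by *Nppc*, *Matn4* and *Ctgf*. Its members were the cells that carry the label MG2 in the deposited table of cells, matched by barcode to the count matrix of their stage. They numbered 823 of the 12165 labelled cells that were found in the matrices, of which 350 (of 5335) were from E15.5 and 473 (of 6830) from E17.5. Both stages were wild-type embryos of the strain C57/BL6, and no treatment or mutant allele was involved. At E15.5, 10 coronal sutures were pooled, digested with dispase and collagenase II, and cleared of dead cells with a removal kit. At E17.5, 16 sutures of 2 litters were dissociated with collagenase IV in 3 batches and sorted by FACS. Each stage is 1 deposited matrix of a droplet-based 3′ assay, called a library here, and the E17.5 matrix joins libraries of the 3 batches. There is no second E15.5 sample, and barcodes are not assigned to the E17.5 batches, so no p-value was computed. Stage cannot be told apart from the enzyme, the sorting, the embryos and the version of the matrix, which all differ between the libraries.

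The dura mater is the outermost of the meninges. Its outer layer lies against the skull bones and serves as their inner periosteum, and its inner border faces the arachnoid. *Nppc* encodes C-type natriuretic peptide, a local signal best known for driving the growth of cartilage through the receptor that *Npr2* encodes. *Matn4* encodes matrilin-4, an adaptor protein of cartilage and other matrices, and *Ctgf* encodes connective tissue growth factor, a secreted matrix protein.

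A level is the number of unique molecular identifiers (UMIs) of a gene summed over the cells of a cluster in a library, per 1000000 of all their UMIs (CPM), given with an exact Poisson 95% interval. A gene was called higher or lower in MG2 when its level differed at least 2-fold with intervals that did not overlap, in both libraries. The 12150 genes tested are listed in both matrices and have 50 or more UMIs over the labelled cells of each library. The labels were made by the study from these same genes on both libraries together, so that levels of MG2 against other clusters describe the label and do not test it, and the 2 libraries are not independent support for it. Intervals cover counting error only.

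Of the labelled cells, 6.56% were MG2 in the E15.5 library (5.91 to 7.26, Clopper-Pearson) and 6.93% in the E17.5 library (6.33 to 7.55). The E17.5 barcodes carry a suffix from 1 to 3 that is not assigned to a batch, and MG2 made up 12.1% of the labelled cells with suffix 1, 5.6% with suffix 2 and 5.98% with suffix 3. The share was thus higher in suffix 1, which held 0 cells of MG1, the other cluster that the study reads as periosteal dura, whereas suffixes 2 and 3 held 193 and 230. MG2 cells had median depths of 7174 UMIs and 2282 genes in the earlier library and 9260 UMIs and 2792 genes in the later, against 8598 and 12589 UMIs in the other labelled cells. At E15.5 none of the labelled cells had the number of UMIs given in the deposited table, where the MG2 median is 9750.5, while at E17.5 the numbers were equal in 6830 of 6830 cells. MG1 had 28 and 423 cells in the E15.5 and the E17.5 library, and MG3, the remaining dural neighbour, had 200 and 165. No MG2 cell of a library shared its 16-base barcode with an MG2 cell of the other, although 42 barcodes of labelled cells were found in both.

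*Nppc* (ENSMUSG00000026241, chromosome 1 from 86666291 to 86670571 of GRCm38, minus strand) was 299 CPM in MG2 in the E15.5 library (279.8 to 319.5) and 193 CPM in the E17.5 library (181 to 206). Within the E17.5 library its level was 292 CPM in suffix 1, 161 CPM in suffix 2 and 148 CPM in suffix 3, so that suffix 1 lay close to the E15.5 library. Only the other MG clusters came near these levels. MG3 had 230.4 CPM (209.7 to 253) at E15.5, below MG2, and 288 CPM (265 to 312) at E17.5, above it. MG4, the arachnoid cluster of the study, had 97.8 and 84.8 CPM. None of the 11 clusters outside MG exceeded 10.8 CPM in either library, and MG1 went from 103 CPM (67.9 to 150.0) in its 28 cells at E15.5 to 6.18 CPM at E17.5.

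*Matn4* (chromosome 2 from 164389393 to 164405160, minus strand) had another distribution. Its level in MG2 was 313 CPM (293 to 334) in the earlier library and 304 CPM (288 to 319.6) in the later, with 354, 299 and 271 CPM in the 3 suffixes. In MG1 it went from 118 CPM (80.4 to 168) to 423 CPM (406 to 441) between the libraries, so MG2 led the 15 clusters at E15.5 and came after MG1 at E17.5. MG3 was at 10.7 and 13.7 CPM, below the mean level of the other labelled cells, which was 24.3 and 52.8 CPM. Outside MG the ligament-like cluster LIG was highest at E17.5, with 106 CPM.

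*Ctgf* (annotated as *Ccn2*, chromosome 10 from 24595442 to 24598683, plus strand) was the marker for which MG2 stood first in both libraries, with 60 CPM (51.5 to 69.5) in the first and 158 CPM (147 to 169.6) in the second. The suffixes ranged from 94.5 CPM in suffix 1 over 154 CPM in suffix 2 to 209 CPM in suffix 3, the reverse of the order of *Nppc*. The next highest cluster was OG3 at E15.5, with 24.7 CPM (16.9 to 34.9), and MG1 at E17.5, with 36.5 CPM (31.6 to 41.9), and neither interval overlapped that of MG2.

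**Figure D1:**
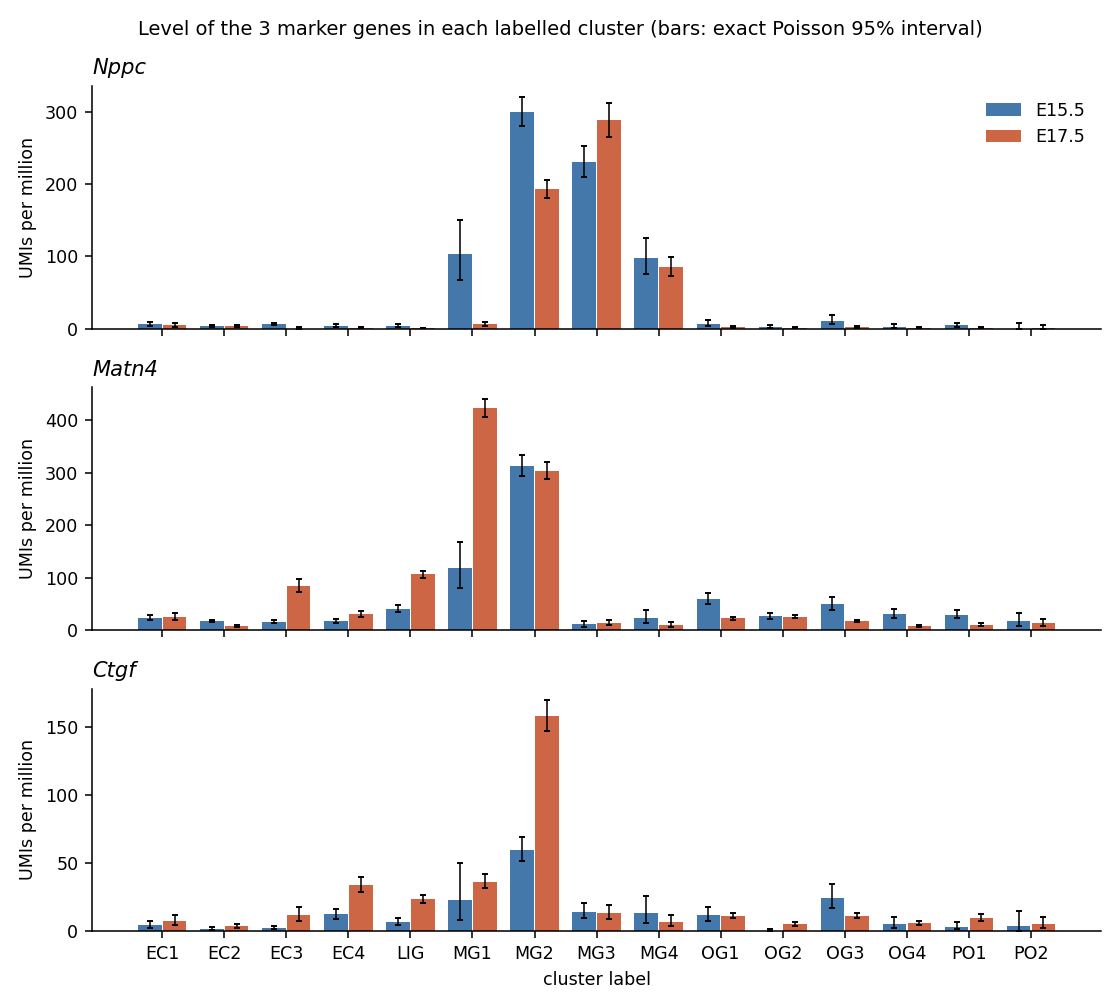
Level of *Nppc*, *Matn4* and *Ctgf* (vertical axes, CPM) in each of the 15 labelled clusters (horizontal axis) at E15.5 (blue) and E17.5 (orange), with exact Poisson 95% intervals. *Nppc* is shared with MG3 (230.4 and 288 CPM), *Matn4* with MG1 (423 CPM at E17.5), and *Ctgf* is highest in MG2 (60 and 158 CPM).

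Cells that hold *Nppc* and *Matn4* together were found mostly in MG2. After each cell was thinned to 3000 UMIs, *Nppc* was detected in 51.3% of MG2 cells from E15.5 and 33.6% of those from E17.5, *Matn4* in 52.2% and 47.8%, and *Ctgf* in 11.7% and 27.7%. Both *Nppc* and *Matn4* were detected in 27.9% and 17.3% of MG2 cells, against 0.124% and 0.204% of all other labelled cells, 0.503% and 1.21% of MG3 cells, and 7.41% and 2.36% of MG1 cells. Unthinned, the shares of MG2 cells with both were 54.6% and 41.0%. As a measure of free RNA, unlabelled cells with UMIs of the macrophage genes *C1qa*, *C1qb*, *C1qc* and *Csf1r* and without a joint signal of *Acan*, *Matn1* and *Col9a1* were used. There were 290 and 585 of them, with median depths of 9564 and 9911 UMIs. In them *Nppc* was detected in 1.06% and 0.342% and *Matn4* in 6.69% and 1.88%, all below the shares in MG2. With the cells of a joint cartilage signal kept, *Matn4* was 88.7 and 13.3 CPM in the C1q cells.

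Against all other labelled cells, 271 of the 12150 genes were higher in MG2 in both libraries (2.23%) and 476 were lower (3.92%), the shares against which the counts of gene lists below are to be read. In the E15.5 library alone the numbers were 536 higher (4.41%) and 1164 lower (9.58%), and in the E17.5 library alone 549 (4.52%) and 902 (7.42%). Of the 271 genes, 188 were at least 2-fold higher in E15.5 and in each of the 3 E17.5 suffixes. Above the C1q cells without a joint cartilage signal, 211 were also at least 2-fold higher in both libraries, where 14.5% of all genes tested were. Above all C1q cells the number was 203, for which no such share was taken. Of the 12150 genes tested, MG2 had the highest level of the 15 clusters for 445 in the earlier library and 662 in the later. Of these, 156 were the same genes. The counts of the other clusters were not taken, so these have no background to be read against.

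Beside *Nppc*, which was 18.4-fold higher in either library, the gene with the largest smaller-of-2 fold was *Gpha2*, which encodes the alpha subunit of the glycoprotein hormone thyrostimulin (chromosome 19 from 6226380 to 6227768, plus strand). In MG2 it went from 93 CPM at E15.5 to 290.3 CPM at E17.5, with 444, 238 and 222 CPM in the suffixes, against 3.16 and 18.1 CPM in the other labelled cells. Thinned to 3000 UMIs, 15.8% and 26.6% of MG2 cells held a UMI of it, compared with 0.455% and 3.46% of the other labelled cells and 0.704% and 1.2% of the C1q cells. *Gpha2* was therefore detected in a minority of MG2 cells at this depth.

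Several of the 20 genes with the largest smaller-of-2 fold encode membrane transporters, channels and receptors. *Slc4a8*, a sodium-driven chloride and bicarbonate exchanger, was 12.3-fold and 14.7-fold higher in MG2 (32.3 and 25.4 CPM). *Kcns1*, a modulatory subunit of voltage-gated potassium channels, was 21.5-fold and 6.09-fold higher, and *Gria1*, a subunit of AMPA glutamate receptors, 32.8-fold and 6.79-fold. The fold of *Gria1* was 18.4 in suffix 1 and 6.02 and 5.58 in suffixes 2 and 3. *Cpm*, the membrane peptidase carboxypeptidase M, was 10.3-fold and 5.86-fold higher, and *Nlgn1*, a synaptic adhesion protein, 6.45-fold and 5.12-fold. *Nlgn1* was higher in MG3 than in MG2, with 27 and 27 CPM against 22.9 and 10.7 CPM. *Slc4a8* was 15.3 and 26.5 CPM in MG3, so it did not exceed MG3 at E17.5.

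Others of the 20 encode secreted and matrix proteins. *Mia*, a small secreted protein of cartilage, was 592 and 307 CPM in MG2 (7.84-fold and 8.98-fold), and *Chad*, the cartilage matrix protein chondroadherin, 19.9 and 74.8 CPM (7.32-fold and 12-fold). *Col14a1*, a fibril-associated collagen, reached 1169 and 665 CPM (5.62-fold and 5.38-fold), and the secreted peptide precursor *1500015O10Rik* (also called *Ecrg4*) 2673 and 1880 CPM (8.42-fold and 5.51-fold). *Itgbl1*, an integrin beta-like secreted protein, was 14.4-fold and 7.29-fold higher. *Vwc2*, a BMP-binding protein, was 6.24-fold and 6.97-fold higher, *Shisa3*, an inhibitor of Wnt and FGF receptors, 10.8-fold and 5.63-fold, and *Il33*, an alarmin cytokine, 8.49-fold and 5.15-fold. *Shisa3*, *Il33* and *Vwc2* were shared with MG3, where their levels at E17.5 were 183, 44.1 and 61.3 CPM against 119, 37.2 and 37.8 CPM in MG2. In MG1 *Shisa3* was 122 and 90.5 CPM and *Il33* 38.2 and 38.3 CPM. *1500015O10Rik* was higher in MG3 than in MG2 in both libraries, with 3071 and 3294 CPM. *Col14a1* was higher than in MG2 in both MG1 (1260 and 745 CPM) and MG3 (1272 and 794 CPM). The reads of *Mia*, *Itgbl1*, *Vwc2* and *Nlgn1* could in part belong to annotated genes that overlap them on the same strand.

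**Figure D2:**
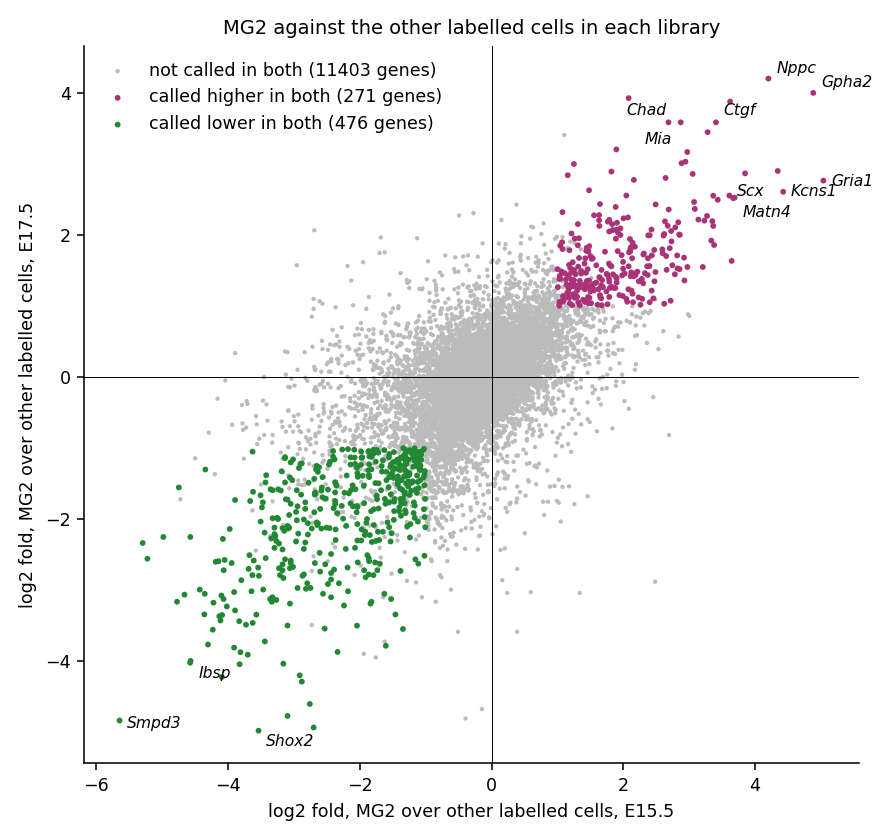
Log2 fold of MG2 over all other labelled cells in the E15.5 library (horizontal axis) and in the E17.5 library (vertical axis), 1 point per tested gene, with the 271 genes called higher in both libraries in purple and the 476 called lower in green. Genes with a fold of 0 in a library are not drawn. *Nppc*, *Gpha2*, *Ctgf* and *Gria1* lie at the upper right and the bone genes *Smpd3* and *Ibsp* at the lower left.

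For 6 genes (0.0494% of those tested) MG2 was higher than the other labelled cells, than MG1 and than MG3, each in both libraries. They were *Ctgf*, *Gpha2*, *Scx*, *Kcns1*, *Prss12* and *Trib2*. MG1 had 28 cells at E15.5, so few UMIs stand behind its levels there. *Scx* (chromosome 15 from 76457452 to 76459458, plus strand), a transcription factor of tendon progenitors, was 45.5 CPM in MG2, 3.82 in MG1 and 4.58 in MG3 at E15.5, with 87.6, 27.4 and 1.96 CPM in the same order at E17.5. The study also names *Scx* among genes enriched in LIG, which these calls took only as part of the other labelled cells. *Kcns1* (chromosome 2 from 164163619 to 164171113, minus strand) was 39.1 CPM in MG2 at E15.5 and 3.82 CPM in MG1, and MG3 had 0 UMIs, which allows up to 1.53 CPM. At E17.5 its levels in the same order were 44.6, 16.7 and 3.43 CPM. *Prss12*, the secreted protease neurotrypsin, was 112, 26.7 and 32.6 CPM in the earlier library, compared with 331, 54.3 and 106 CPM in the later. *Trib2*, a pseudokinase, was 52.6, 11.5 and 6.1 CPM, and 52.5, 15.1 and 8.82 CPM. In the suffixes *Kcns1* ranged from 39.5 to 49.8 CPM, *Prss12* from 306 to 356, *Trib2* from 50.1 to 55.7 and *Scx* from 62.2 to 98.8, so each suffix of MG2 stood above the pooled MG1 and MG3 levels. *Prss12* and *Trib2* overlap another annotated gene on their strand.

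Apart from *Nppc*, no tested gene of the natriuretic peptide pathway was called higher in MG2 than in the other labelled cells. Of the 15 listed genes of the pathway 11 were tested. Against those cells *Nppc* was higher in MG2 and *Prkg2*, a cGMP-dependent kinase that acts in cartilage, was lower (2.36 and 1.03 CPM against 6.53 and 3.41). The receptor gene *Npr2* was 15.8 and 22.1 CPM in MG2 against 9.79 and 11.3 CPM in the other labelled cells, below the 2-fold limit, although MG2 ranked first of the 15 clusters at E15.5 and second at E17.5. The clearance receptor gene *Npr3* was 3.03 and 4.54 CPM against 16.4 and 3.92 CPM. *Furin*, a protease that processes the precursor, was 34 and 33.7 CPM, and *Mme*, the peptidase neprilysin, was 91.6 and 53.5 CPM against 45.5 and 28.4 CPM. *Mme* was called higher in MG2 than in MG1. The median log2 fold of the 11 genes was 0.68 and 0.57 in the 2 libraries, beside -0.16 and -0.06 for all genes tested.

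Most markers of the dura mater were called higher in MG2 than in the other labelled cells, and no marker of the arachnoid or pia was called higher in both libraries. Of 6 dura markers, *Fxyd5*, *Gja1*, *Foxc1*, *Foxc2* and *Foxd1* were called higher, with a median log2 fold over the 6 of 2.58 and 1.49. *Gja1*, which encodes the gap junction protein connexin 43, was 546 and 354 CPM in MG2, 195 and 164 CPM in the other labelled cells, 439 and 147 CPM in MG1, and 1523 and 1486 CPM in MG3. *Foxc1*, a transcription factor gene that the meninges need in development, was 107 and 84.5 CPM against 10.5 and 18.5 CPM. *Crabp2*, a retinoic acid binding protein, was the dura marker not called, with 175 and 71.1 CPM in MG2 and 137 and 50.5 CPM in the other labelled cells. *Gja1*, *Crabp2* and *Foxc2* were lower in MG2 than in MG3, and no dura marker differed from MG1 by the rule. Of 10 arachnoid markers 6 were tested, none was higher and *Dpp4* and *Vtn* were lower, and *Gjb6*, *Slc22a6*, *Ptgds* and *Vtn* were between 0 and 1.65 CPM in MG2. The arachnoid marker *Cldn11* was 3.03-fold the level of the other cells at E15.5 (2.56 to 3.57) and 0.587-fold at E17.5. Of 4 pia markers tested none was higher and *Col15a1* and *Ngfr* were lower, while *Lama2* was 1.37-fold and 1.92-fold, below the limit.

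Part of the cartilage list was high in MG2. Of 32 listed cartilage genes 31 were measured and 26 tested, and *Col9a1*, *Col9a3*, *Acan*, *Matn4*, *Mia*, *Chad*, *Ucma*, *Sox5* and *Sox9* were higher than in the other labelled cells in both libraries, which are 9 of 26 where 2.23% of all genes were. *Matn4* is also a marker by which the study names the cluster. *Col11a2* was lower, with 42.1 and 18.6 CPM against 98 and 56.7 CPM. The median log2 fold of the 26 genes was 1.05 and 1.07 in the 2 libraries. *Sox9*, the transcription factor that directs cells to cartilage, was 104 CPM in MG2 at E15.5 and 37 CPM at E17.5 (31.5, 42 and 36.7 CPM in the suffixes), against 23.6 and 9.98 CPM. *Acan*, the main proteoglycan of cartilage, was 167 and 99 CPM (108, 98.8 and 92.7 CPM in the suffixes) against 30.1 and 39 CPM. Levels of *Col2a1*, the fibrillar collagen of cartilage, were 334 and 59.3 CPM against 167 and 35.2 CPM, which did not pass the limit in both libraries.

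UMIs of cartilage genes were also found in cells that should lack them, with 81.1 and 31.9 CPM of *Col2a1* in the C1q cells. These are 290 of 313 and 585 of 591 C1q cells, and leaving out those with a joint cartilage signal lowers their cartilage levels by choice. Over all C1q cells *Col2a1* was 613 and 74.1 CPM. Against all of them 7 of the 26 cartilage genes were at least 2-fold higher in MG2 in both libraries. The share of all genes tested was not taken for this comparison, so the 7 has no background to be read against. Without the excluded cells 18 of the 26 were higher, beside 14.5% of all genes tested. The cells were excluded by 3 genes of this same list, so the share over all genes is no fair background for the 18. *Sox9* was 11.1 and 1.6 CPM in the C1q cells so chosen and 35.3 and 4.66 CPM in all of them. *Acan* was 17.3 and 10.9 CPM so chosen, and 104 and 17.8 CPM in all, beside 167 and 99 CPM in MG2, so the excess of *Acan* at E15.5 passed the limit in the first case alone. *Mia* was 54 and 13.9 CPM so chosen, and 223 and 22.7 CPM in all. The 8 genes that did not pass against the chosen cells were *Col2a1*, *Col11a2*, *Matn1*, *Matn3*, *Comp*, *Cytl1*, *Scrg1* and *Wwp2*, among them the abundant *Matn1*, at 52.9 and 7.23 CPM in MG2 and 34.2 and 9.87 CPM in the C1q cells. Genes of growth plate maturation were at or near 0 in MG2, *Col10a1* with 0 CPM in both libraries and *Ihh* with 0 and 1.03 CPM. Thinned to 3000 UMIs, *Col2a1* was detected in 55.1% and 16.3% of MG2 cells and in 23.6% and 9.06% of C1q cells, and *Sox9* in 25.8% and 9.09% of MG2 cells. Unlabelled cells with UMIs of *Acan*, *Matn1* and *Col9a1*, which include chondrocytes, had 7424 and 7118 CPM of *Col2a1*, 457 and 295 CPM of *Sox9*, and 872 and 464 CPM of *Matn4*, but 10.2 and 1.65 CPM of *Nppc*.

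**Figure D3:**
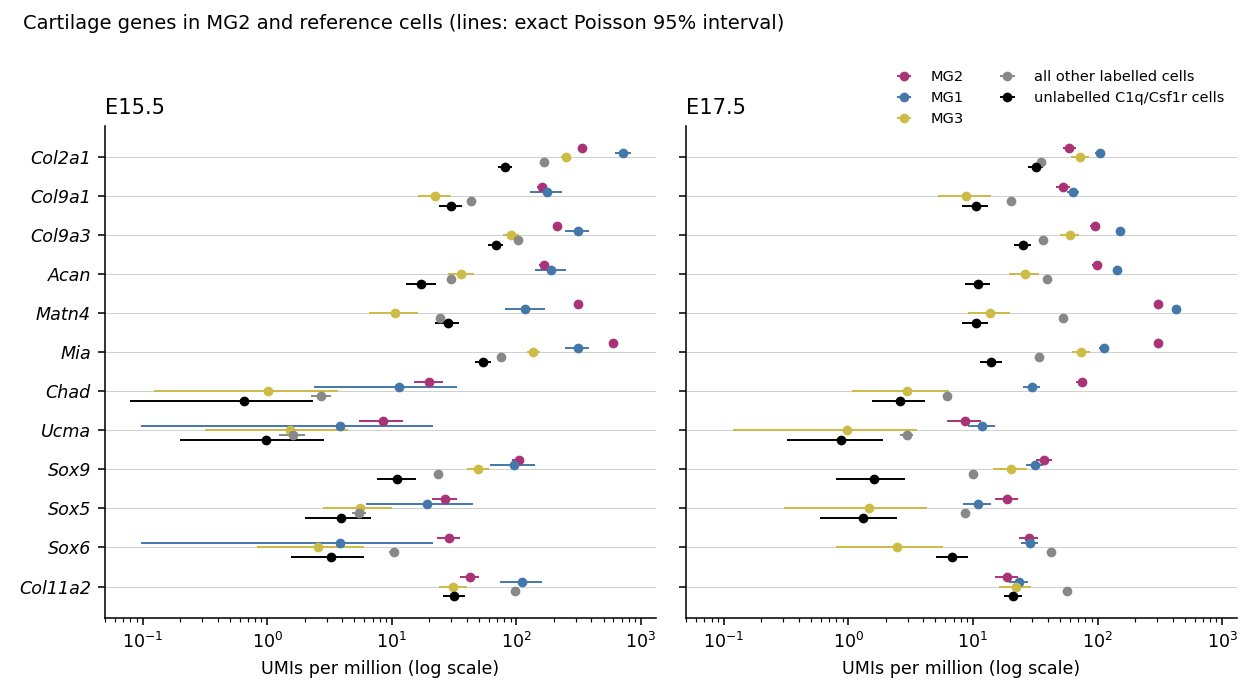
Levels of 12 cartilage genes (vertical axis) in CPM on a log scale (horizontal axis) in MG2, MG1, MG3, all other labelled cells and unlabelled cells with UMIs of *C1qa*, *C1qb*, *C1qc* and *Csf1r* but no joint signal of *Acan*, *Matn1* and *Col9a1*, for E15.5 and E17.5, with exact Poisson 95% intervals. A group with 0 UMIs has no point. *Sox9*, *Acan*, *Mia* and *Matn4* of MG2 lie to the right of the other labelled cells and of the C1q cells in both libraries, whereas *Col11a2* does not.

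Of the 26 cartilage genes none differed between MG2 and MG1 by the rule, where 0.156% and 0.255% of all genes did and MG1 has 28 cells at E15.5. Summed over the list, MG2 had 3727 and 2340 CPM, MG1 4875 and 4005 CPM, and MG3 2376 and 1518 CPM. *Mia* was 1.91-fold (1.53 to 2.42) and 2.74-fold (2.49 to 3.01) higher in MG2 than in MG1, while the median log2 fold of MG2 over MG1 was -0.46 and -0.39, the MG1 level being higher for most. Compared with MG3, *Col9a1*, *Ucma*, *Matn4*, *Sox5*, *Mia*, *Acan*, *Sox6*, *Lect1* and *Chad* were higher in MG2 and *Epyc*, a small proteoglycan, was lower, which are 9 and 1 of 26 where 1.21% and 1.33% of all genes were called. *Sox6*, a partner of *Sox9*, was 28.6 and 28.1 CPM in MG2 and 2.54 and 2.45 CPM in MG3, but 10.4 and 42.6 CPM in the other labelled cells.

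Of the tendon list, *Scx*, *Col14a1* and *Bgn* were higher in MG2 than in the other labelled cells, and *Tac1* and *Chodl* lower, of 13 genes tested, where 2.23% and 3.92% of all genes were. *Bgn*, the small proteoglycan biglycan, was 1829 and 2399 CPM in MG2 and highest there of the 15 clusters. *Tnmd*, the tendon membrane protein tenomodulin, went the other way from *Scx* against MG1, being 67.7 and 64.7 CPM in MG2 and 210 and 704 CPM in MG1. The median log2 fold of the list was 0.29 in the earlier library and -0.27 in the later, so the list had no common direction.

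MG2 had high levels of several matrix genes. *Eln*, the core protein of elastic fibres, went from 1016 CPM at E15.5 to 1918 CPM at E17.5 in MG2, with 1912, 1910 and 1930 CPM in the suffixes, against 374 and 545 CPM in the other labelled cells, 607 and 804 CPM in MG1, and 529 and 688 CPM in MG3. *Mgp*, matrix Gla protein, an inhibitor of mineralisation, was 1990 and 2509 CPM against 414 and 985 CPM. *Col16a1* was the third of 41 genes called higher, with 451 and 399 CPM, and *Fbn1*, *Col15a1* and *Col22a1* were called lower, where 2.23% and 3.92% of all genes were. The median log2 folds of the list were 0.06 and 0.45, beside -0.16 and -0.06 for all genes. Its summed level was 49084 and 70453 CPM in MG2 and 39944 and 44340 CPM in the other labelled cells. It was higher in MG1 than in MG2, with 53570 and 78557 CPM, and was 45465 and 62609 CPM in MG3. Among 14 tested genes of the CCN family and of Yap/Taz targets, *Ctgf* and *Wisp2* were higher and *Nov* was lower in MG2 than in the other labelled cells. *Wisp2* was 14.1 and 88.8 CPM against 6.09 and 21.9, and *Nov* 31 and 25 CPM against 276 and 178. *Cyr61* was highest of the 15 clusters in MG2, with 793 and 302 CPM, but below the 2-fold limit against the other cells at 473 and 151 CPM.

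Of 47 tested genes for secreted signals, *Pthlh*, *Tgfb3* and *Angptl4* were higher in MG2 than in the other labelled cells, and *Wnt2*, *Wnt5a*, *Wnt6*, *Wnt11*, *Wnt16* and *Vegfd* were lower, where 2.23% and 3.92% of all genes were. *Pthlh*, parathyroid hormone-like peptide, a regulator of cartilage growth, was 47.2 and 43.4 CPM in MG2 (57.8, 34.6 and 40.4 in the suffixes) against 7.1 and 11.6 CPM, and also led the genes that were higher in MG2 than in MG1, where it was 7.64 and 2 CPM. *Tgfb3* was 139.8 and 172 CPM against 52.2 and 82.1 CPM. *Wnt2* was 23.6 and 12.4 CPM in MG2 against 212 and 77.4 CPM in the other labelled cells, and *Wnt5a* 9.77 and 6.4 CPM against 51 and 14.4 CPM. *Bmp2* and *Igf1* were called higher than in MG3, with 26.3 and 20.9 CPM of *Bmp2* against 8.14 and 7.35 CPM, and 687 and 460.5 CPM of *Igf1* against 140.4 and 183 CPM. The median log2 fold of the list against the other labelled cells was -0.43 and -0.04.

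Of 30 tested binding proteins and antagonists of such signals, *Igfbp5*, *Ltbp2* and *Ltbp3* were higher and 8 were lower, among them *Frzb*, *Sfrp2*, *Sfrp4*, *Igfbp6* and *Dkk1*. *Igfbp5*, which binds insulin-like growth factors, was 1373 and 799 CPM in MG2, 672 and 399 CPM in the other labelled cells, 382 and 98.4 CPM in MG1, and 1209 and 1270 CPM in MG3. *Ltbp3*, which binds latent TGF-beta, was 103 and 139.7 CPM against 26.2 and 42.6 CPM. *Dkk1*, an inhibitor of Wnt signalling, was 1.01 and 1.03 CPM in MG2 against 14.3 and 17.1 CPM. Over all genes the rule also called more lower (3.92%) than higher (2.23%), and the medians of the list were -0.37 and -0.15 beside -0.16 and -0.06.

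Of 49 patterning transcription factors 8 were higher in MG2 and 8 lower, where 2.23% and 3.92% of all genes were. Among those higher were *Alx1*, *Six2*, *Msx2*, *Erg* and *Foxc1*, and among those lower *Lef1*, *Tcf7*, *Ebf2*, *Osr1* and *Osr2*. *Msx2*, a homeobox gene of the skull vault, was 69.1 and 105 CPM in MG2 against 13.1 and 50.5 CPM, and 22.4 and 42.6 CPM in MG3. *Six2*, a regulator of mesenchymal progenitors, was 56.9 and 85.5 CPM against 7.25 and 29.3 CPM. *Lef1* and *Tcf7*, which act downstream of Wnt, were 1.35 and 1.86 CPM and 0.337 and 4.54 CPM in MG2, against 15.1 and 6.67 CPM and 5 and 44.7 CPM. *Dlx5*, an activator of skeletal genes, was 23.9 and 66.9 CPM in MG2, against 9.31 and 107 CPM in the other labelled cells and 0.509 and 6.37 CPM in MG3.

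The genes lowest in MG2 against the other labelled cells were those of bone and of the outer suture. Of 13 osteoblast genes 10 were lower and none was higher, with medians of -2.46 and -2.57. *Ibsp*, bone sialoprotein, was 71.8 and 109.9 CPM in MG2 against 1700 and 1764 CPM. The summed level of the 13 genes was 285 and 384 CPM in MG2, close to the 426 and 381 CPM of the C1q cells, and 2293 and 3080 CPM in the other labelled cells. *Smpd3*, a sphingomyelinase that mineralisation requires, was 1.35 and 5.58 CPM against 67.3 and 160.2 CPM, *Dmp1* was 0.0667-fold and 0.0709-fold and *Ifitm5* 0.077-fold and 0.0662-fold. *Runx2*, the transcription factor that opens bone formation, was 40.4 and 58.5 CPM in MG2 against 27.7 and 85.9 CPM, and was called higher than in MG3, where it was 13.2 and 20.6 CPM. *Sp7*, which acts after it, was 5.73 and 20.5 CPM against 12.8 and 122 CPM. Of 8 genes of the ectocranial layers 6 were lower, among them *Pi16* at 24.6 and 34.7 CPM against 314 and 198 CPM. Among the 10 genes with the largest deficit were also the homeobox genes *Meox2* (0.0507-fold and 0.0731-fold) and *Shox2* (0.0863-fold and 0.0315-fold), the chemokine *Ccl11* and the collagen *Col6a6*.

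The tested markers of cell types outside the mesenchyme did not separate MG2 from the other labelled cells. None of the tested endothelial (4), pericyte (4), myeloid (7) or erythroid (5) markers was called in either direction against them. *Kdr* of the endothelial list had too few UMIs to be tested, so no call was made for it. Its level was 5.95-fold, 3.89-fold and 3.7-fold that of the other labelled cells in suffixes 1, 2 and 3. Summed levels were 27 and 20.5 CPM for the endothelial list in MG2 against 24.6 and 24.3 CPM, 54.2 and 68.8 CPM for the pericyte list against 82.9 and 60.9 CPM, and 37.1 and 178 CPM for the myeloid list against 50.2 and 162 CPM, where the C1q cells had 11381 and 19877 CPM. Erythroid genes summed to 11364 and 554 CPM in MG2 and to 10821 and 546 CPM in the other labelled cells. The neural and keratinocyte lists, at most 7.02 and 3.37 CPM in MG2, held no gene that could be tested. Of the neural genes, *Neurod1*, *Cplx3*, *Otx2* and *Sox10* had 0 UMIs at E15.5. Of 8 cell cycle genes *Mcm5* and *Ccnb1* were lower and none was higher. The proliferation marker *Mki67* was detected in 3.81% and 4.02% of MG2 cells after thinning and in 7.9% and 9.06% of the other labelled cells, and *Top2a* in 8.8% and 7.19% against 13% and 16.9%. The 10 genes known to respond to dissociation summed to 4447 and 2669 CPM in MG2 and to 5165 and 3003 CPM in the other labelled cells, and none was called. Of 14 tested genes of mechanosensing and cell junctions, *Gja1* was higher and *Itga10*, *Panx3* and *Cdh2* were lower.

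Against MG1, MG2 was higher in 19 genes (0.156%) and lower in 31 (0.255%) in both libraries. MG1 had 28 cells at E15.5, where 63 genes were higher (0.519%) and 228 lower (1.88%), whereas 340 were higher (2.80%) and 280 lower (2.30%) at E17.5. The 10 with the largest smaller-of-2 fold over MG1 were *Pthlh*, *Gpha2*, *Prmt8*, *Prss12*, *Lepr*, *Thy1*, *Kcnj8*, *Smpdl3a*, *Igfbp5* and *Trib2*. *Gpha2* was 15.3 and 4.9 CPM in MG1. *Lepr*, the leptin receptor gene, was 59.3 and 22.1 CPM in MG2 and 15.3 and 3.45 CPM in MG1. Lower in MG2 were *Abi3bp*, *Sfrp2*, *Tnmd*, *Cited2*, *Ptx3*, *Cryab*, *Tfpi*, *Cenpw*, *Crabp1* and *Stmn1*. *Sfrp2*, a secreted modulator of Wnt signalling, was 237 and 383 CPM in MG2 against 1046 and 3332 CPM, and *Abi3bp*, a matrix protein, 9.1 and 10.1 CPM against 99.3 and 217 CPM.

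Against MG3, MG2 was higher in 147 genes (1.21%) and lower in 161 (1.33%) in both libraries. By library, 1.98% of the genes were higher and 2.06% lower in the earlier library, and 3.48% and 3.78% in the later. Highest over MG3 were *Matn4* (29.3-fold and 22.1-fold), *Chad*, *Kcns1*, *Cpm*, *Sox6*, *Dlx5*, *Scx* (9.94-fold and 44.7-fold), *Cadm1*, *Gpha2* and *Gria1*. *Postn*, the matrix protein periostin of periosteum and tendon, was also higher, with 531 and 1054 CPM in MG2 against 105 and 246 CPM in MG3. Lower were *Thbd*, *Lypd2*, *Cdh5*, *Stra6*, *Arhgap20*, *Vit*, *Sfrp1*, *Bace2*, *Igfbp6* and *Rarres1*. *Thbd*, thrombomodulin, was 15.2 and 12.8 CPM in MG2 against 162 and 230.3 CPM, and *Cdh5*, the adhesion protein VE-cadherin, 6.06 and 4.13 CPM against 59.5 and 81.3 CPM. Both are best known from endothelium, whose 5 listed genes summed to 82.9 and 103 CPM in MG3, mostly *Cdh5*. *Junb* and *Fos* of the dissociation list were higher in MG2 than in MG3, where the list summed to 2728 and 1712 CPM, and the part of dissociation in the differences between these clusters was not tested.

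Most genes that differed between MG1 and MG3 had an intermediate level in MG2. At E17.5, 591 genes were higher in MG1 than in MG3 (4.86%), and MG2 lay between both levels for 457 of them (77.3%), above both for 104 and below both for 30. Of the 661 genes higher in MG3 (5.44%), MG2 lay between for 542 (82%), above both for 22 and below both for 97. Genes chosen for a difference leave much room in between, so the same share was taken for each of the other 12 clusters. The next highest was MG4 in both directions, with 67.3% and 66.4%, and the lowest were OG4 with 41.8% and PO2 with 32.5%. In MG2 the shares were 63.5% and 72.8% for suffix 1, 72.1% and 72.3% for suffix 2, and 75.5% and 77.8% for suffix 3. The 63.5% of suffix 1 lay below the 67.3% of MG4 and the 65.7% of EC3. Suffix 1 holds 0 MG1 cells, so its MG1 reference came from suffixes 2 and 3. Without the cells of the highest doublet scores the shares of MG2 were 75.3% and 81.7%. At E15.5, with 28 MG1 cells, MG2 also came first, with 72.1% of 222 genes (1.83% of those tested), ahead of LIG and OG1 with 67.6%, and with 66.3% of 83 genes (0.683%), ahead of MG4 with 51.8%.

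**Figure D4:**
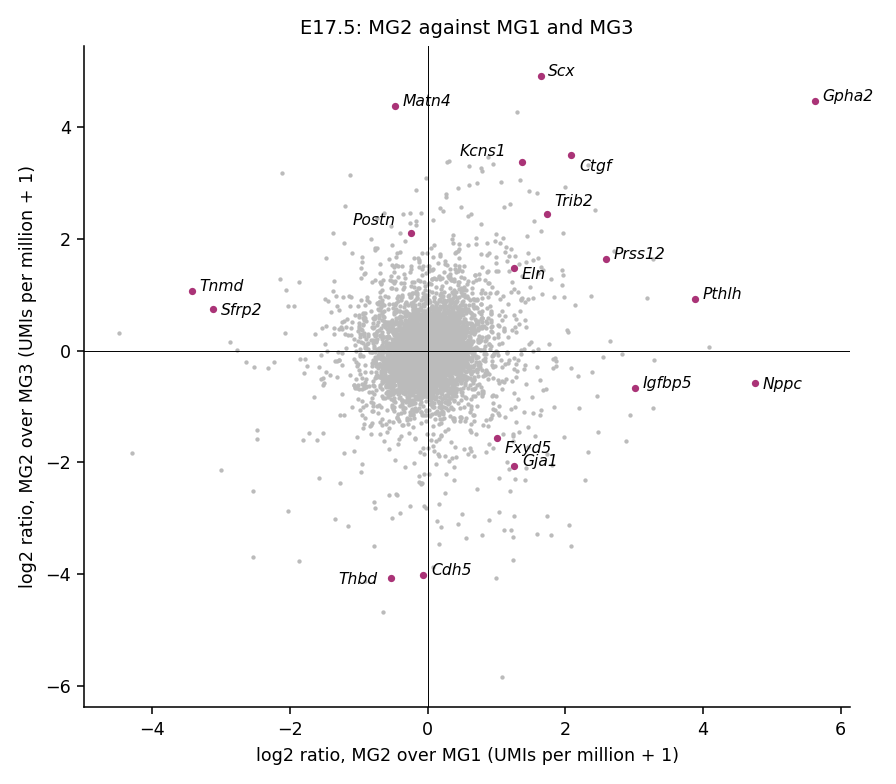
Log2 ratio of MG2 over MG1 (horizontal axis) and over MG3 (vertical axis) at E17.5, from CPM plus 1, with 1 point per tested gene and genes of low level in all 3 clusters left out. The genes named at the upper right, such as *Gpha2*, *Ctgf*, *Scx* and *Prss12*, are higher in MG2 than in both, while *Nppc* and *Gja1* are higher than in MG1 and lower than in MG3, and *Matn4* and *Tnmd* the reverse.

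Over all genes tested, the cluster most like MG2 by Spearman rho of log2(CPM + 1) changed between the libraries. At E15.5 it was MG3 with 0.956, before LIG with 0.937 and MG1 with 0.903, where the 28 MG1 cells give many genes few UMIs. At E17.5 it was MG1 with 0.966, before LIG with 0.951 and MG3 with 0.942. MG2 at E15.5 and MG2 at E17.5 had a rho of 0.945. These are correlations across genes, which are not independent replicates, and clusters of a library share its free RNA.

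Within MG2, cells with *Nppc* more often held *Gja1*. Among cells thinned to 3000 UMIs at E17.5, *Gja1* was detected in 71.7% of those with a UMI of *Nppc* (64 to 78.5) and in 45.2% of those without (39.6 to 50.9). The shares were 70.5% and 46.6% in suffix 1, 72.1% and 45.5% in suffix 2 and 72.7% and 43.9% in suffix 3. At E15.5 they were 78.3% (71.4 to 84.2) and 68.1% (60.4 to 75.1), with overlapping intervals. *Crabp2* was detected in 23.9% of MG2 cells with *Nppc* and in 11.8% of those without at E17.5, with intervals apart, but in 30.3% and 34.3% at E15.5. By *Matn4* the order was different, with *Crabp2* in 19.7% (14.1 to 26.3) of MG2 cells with a *Matn4* UMI and in 46% (38.2 to 54) of those without at E15.5, and in 14.6% and 17% at E17.5. *Matn4* itself was detected in 54.3% and 50% of MG2 cells with and without *Nppc* at E15.5 and in 51.6% and 45.9% at E17.5. Cells within a library are not replicates, and a missing UMI at this depth is not absence of the gene.

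**Figure D5:**
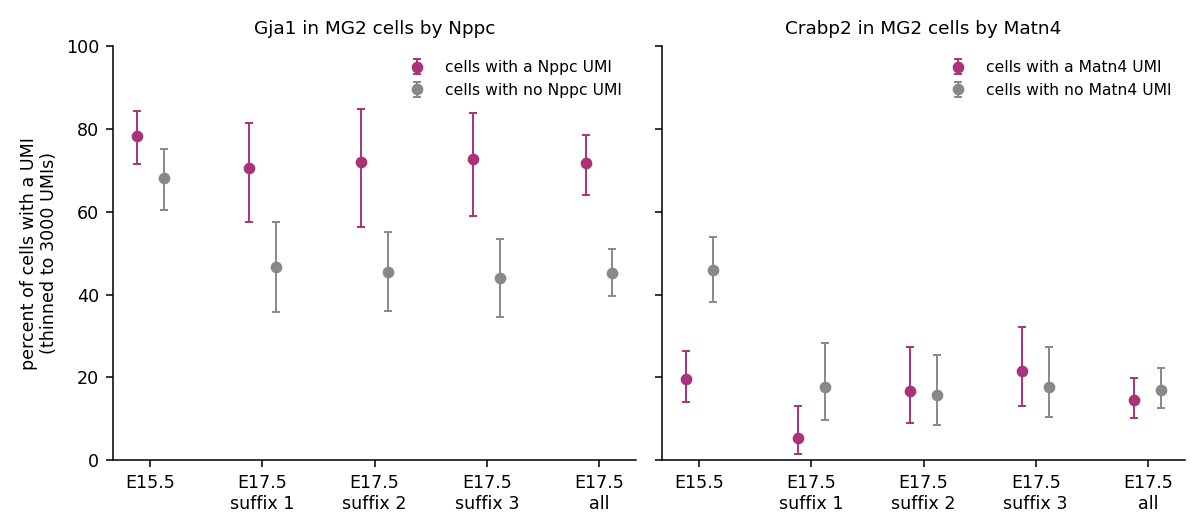
Percent of MG2 cells with a UMI of *Gja1*, split by *Nppc* (left), and of *Crabp2*, split by *Matn4* (right), in cells thinned to 3000 UMIs, for E15.5, each E17.5 suffix and all E17.5 cells, with Clopper-Pearson 95% intervals. The *Gja1* share of E17.5 cells with *Nppc* is between 70.5% and 72.7% in the 3 suffixes, against 43.9% to 46.6% without, and the *Crabp2* split is seen at E15.5 (19.7% against 46%).

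Between the stages, a gene was called when its level in MG2 changed at least 2-fold with intervals apart and its ratio was also at least 2-fold that in the other labelled cells of the libraries. By this rule 142 genes were higher in MG2 at E17.5 (1.17%) and 95 were lower (0.782%). Without the comparison with other cells the numbers were 464 (3.82%) and 436 (3.59%). *Igf2*, an insulin-like growth factor, was at 75.8 CPM in MG2 and 42.3 CPM in the other labelled cells of the E15.5 library, and at 2332 and 1926 CPM in those of the E17.5 library, so it passed without the comparison and not with it. The reads of *Igf2* could in part belong to annotated genes that overlap it on the same strand. The other labelled cells also changed in makeup, with MG1 going from 28 to 423 cells. As shares of the labelled cells, EC3 went from 22.2% to 2.84% and EC2 from 17.3% to 8.9%. OG1 went from 4.89% to 14.8% and OG3 from 2.62% to 13.6%. In each of the 3 suffixes, 80 of the 142 and 34 of the 95 passed.

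*Galnt16*, *Lmcd1*, *Pamr1*, *Adam33*, *Cebpb*, *Cys1*, *Dpep1*, *Fgl2*, *Camk2n1* and *Fbln5* had the largest relative ratios. *Galnt16*, *Lmcd1* and *Dpep1* each overlap another annotated gene on their strand, to which part of their reads could belong. *Adam33*, a membrane metalloprotease, went from 16.5 to 158 CPM in MG2 (107, 165 and 190.3 CPM in the suffixes) and from 97.8 to 121 CPM in the other labelled cells, a relative ratio of 7.74. *Fbln5*, a protein of elastic fibres, went from 53.6 to 217 CPM while the other cells had 142 and 131 CPM, a relative ratio of 4.41 (3.89, 4.52 and 4.78 with each suffix and its own other cells). For both genes MG2 went from below the other labelled cells to above them, although *Adam33* stayed below them in suffix 1 (0.823-fold, against 1.39-fold and 1.58-fold in suffixes 2 and 3). *Cebpb*, a transcription factor, went from 0.674 to 34.5 CPM, with 4.36 and 39.3 CPM in the other cells.

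*Fras1*, *Cldn11*, *Unc5c*, *Tnfrsf23*, *Crym*, *Ermp1*, *Kif23*, *Hist1h1b*, *Lepr* and *Slc5a6* had the smallest relative ratios. *Fras1* overlaps another annotated gene on its strand, to which part of its reads could belong. *Cldn11*, a tight junction protein of the arachnoid, went from 58.3 to 20.2 CPM in MG2 and from 19.2 to 34.5 CPM in the other cells, which include MG4. *Crym*, a thyroid hormone binding protein, went from 49.5 to 20.7 CPM (30, 19.1 and 15.1 CPM in the suffixes), and *Lepr* from 59.3 to 22.1 CPM with 19.3 and 19.2 CPM in the other cells. The relative ratio of *Crym* was 0.249, and 0.727, 0.242 and 0.147 for suffixes 1, 2 and 3, so it did not pass in suffix 1.

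The suffixes of the E17.5 library differed within MG2. Suffix 1 was higher than suffix 2 in 75 genes and lower in 95 (1.4% together) and differed from suffix 3 in 63 and 59 genes (1%), while suffixes 2 and 3 differed in 19 and 16 genes (0.288%). Beside *Nppc* and *Ctgf*, the stage ratio of *Matn4* depended on the suffix, with a ratio relative to the other cells of 1.6 in suffix 1, whose other cells hold no MG1, and of 0.428 and 0.323 in suffixes 2 and 3.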

How the data were processed

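The values come from 1 matrix of droplet-based single-cell RNA sequencing (Chromium 3′ v2) per stage, of which the E17.5 matrix joins libraries made in 3 batches. The deposited count matrices are raw UMI counts of 15384 and 9326 barcodes, which the authors had not normalized nor reduced to their limits on cells, and a deposited table assigns the osteogenic and mesenchymal cells to clusters. For alignment to mm10 the methods give Cell Ranger 2.1.1, but the E15.5 matrix carries version 3.1.0 in its header and has 31053 genes in its list, the other matrix 27998. The submitters' processing notes also name FastQC 0.11.7, MultiQC 0.9 and Seurat 3.2.0. Labels had been made from the merged and filtered libraries.

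Counts were summed over the labelled cells of a cluster in each library (48607817 labelled UMIs in the E15.5 library and 92585034 in the E17.5 library) and divided by the total, with scipy 1.17.1, numpy 2.4.6 and pandas 2.3.3 in Python 3.11.15. Doublet scores came from scanpy 1.11.5 and figures from matplotlib 3.10.9. Genes were matched by Ensembl identifier (27514 in both lists). All labelled cells were kept, including 2 MG2 cells outside the limits of the study (1000 UMIs, 1000 genes, 7.5% mitochondrial, 3% Hbb and 3% Hba UMIs), and 5 labelled E15.5 cells that are missing from the matrix were not used. Doublets were not removed in the main values. An alternative left out the cells whose Scrublet score reached the 94th percentile within their library and suffix (14 and 18 MG2 cells). No p-value was computed from cells. A count of 0 is given with a limit of 3 counts.

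The genes named are members of 23 lists, the 20 highest and 10 lowest by the smaller of both folds with at least 50 UMIs, the 10 in each direction against MG1 and MG3, and the 10 in each direction between stages. Which of the list members to describe, and the 6 genes above all 3 comparisons, were settled after their values were seen. Some members of the lists are not reported here by name. The members and lists were chosen with earlier results of these data known. Alternatives were other cell limits, weights, totals, scalings, filters, depths and fold limits, and single suffixes. The comparisons with C1q cells and with all 3 suffixes at once were added after seeing the data. Positions are from GENCODE M21 on GRCm38, whose genes matched all 81 genes named by rank. Overlaps on the same strand are not stated for every gene above. Among the genes named without it, *Alx1*, *Bace2*, *Cadm1*, *Foxc2*, *Ifitm5* and *Lef1* also overlap an annotated gene on their strand, to which part of their reads could belong. The computation was tested on simulated data.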

Additional observations from a re-analysis of the deposited data

Results flagged for a closer look

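Some genes were called in opposite directions in the 2 libraries, 13 of them against the other labelled cells, 8 against MG1 and 1 against MG3, and those that belong to a list or to the genes named by rank are given here. The differences between the libraries were not tested, since each stage is 1 library. *Alpl*, the alkaline phosphatase of bone, had folds of MG2 over the other labelled cells of 2.26 at E15.5 and 0.343 at E17.5. *Matn3*, a matrilin of cartilage, had folds of 0.325 and 3.37 over the same cells. *Rarres1* had folds over MG1 of 0.287 and 2.68, and *Igfbp6* of 0.229 and 2.41, where MG1 has 28 cells at E15.5. *Hist1h1b*, a histone gene of dividing cells, had folds over MG3 of 3.97 and 0.437.

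Cells without a label were used in no comparison of clusters, and some of them within the limits of the study held UMIs of *Nppc*, *Matn4* and *Ctgf* together. They were 23 of 2875 such cells at E15.5 and, in the later library, 10 of 1937, while 0 of the 313 and 591 cells with C1q and *Csf1r* UMIs held all 3. Of these cells, 18 and 4 also held UMIs of *Acan*, *Matn1* and *Col9a1*. In MG2, 58 of 350 and 86 of 473 cells held all 3. Groups of 4 or more samples do not exist here, so no sample could be compared with the rest of its group.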

How the results depend on the processing

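No paired analysis was possible because each stage is 1 matrix, and for the same reason no replicate could be left out. No fold of a gene named by rank changed direction under the alternatives run, but the stage ratio of *Matn4* relative to the other cells was 0.446, and 1.6 with suffix 1, and 2 splits of calls turned as given below. Of the values that answer a comparison, 105 stayed within 1.5 times or within counting error and 39 moved, and of the values of single genes 1306 stayed and 151 moved. With a limit of 1.5-fold, 583 genes were higher and 900 lower in MG2 than in the other labelled cells, 45 and 97 against MG1, 253 and 273 against MG3, and 327 and 186 between stages. Thinned to 3000 UMIs, 294 genes were lower than in the other labelled cells, 8 were higher than in MG1, 88 and 96 differed from MG3, and 86 were higher at E17.5. The mean of per-cell CPM gave 31 genes higher than in MG1, and suffix 1 alone gave 94 higher than in MG3 and no value against MG1. Other clusters weighted equally gave 191 higher and 637 lower genes in place of 271 and 476. Against MG1 the split of 19 and 31 became 28 and 22 with totals without mitochondrial, ribosomal and haemoglobin genes and 27 and 22 with median-of-ratios scaling, and the stage split of 142 and 95 became 111 and 116 with the first. Median-of-ratios scaling moved all log2 folds over the other cells at E15.5 by 0.16. The share of MG2 was 4.26% and 5.4% of all cells within the limits or labelled, and 12.1%, 5.6% and 5.98% in the suffixes. Unthinned, *Nppc* was detected in 74.3% and 54.8% of MG2 cells, *Matn4* in 72.3% and 74.8%, *Ctgf* in 25.7% and 49.9%, and *Nppc* with *Matn4* in 54.6% and 41.0%, and thinned to 5000 UMIs in 67.4% and 43.8%, 59.8% and 61.3%, 18.6% and 36.2%, and 41.9% and 26.6%. Of the alternatives chosen after seeing the data, the C1q cells gave 7 cartilage genes, and 18 without those that hold cartilage UMIs, and the 3 suffixes together 80 and 34 genes between stages. The causes of these moves were not tested, except that a lower limit admits more genes and thinning leaves fewer UMIs. MG1 had 28 cells at E15.5, so few UMIs stand behind its levels there.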
